A study of Mus musculus with 106 samples.

Results

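The macrophage marker genes described here are Adgre1, Cd68, Itgax, Mrc1, Cd163, Trem2, Csf1r and Lyz2, listed by symbol. All 8 were found in each of the 4 deposited count tables, among 23393, 21647, 23420 and 23420 rows (Adgre1 stands under its older symbol Emr1 in 3 of them). The tables hold 106 bulk RNA sequencing libraries in 31 groups from 11 tissues of wild-type male C57BL/6J mice, 8 weeks old at the start and 11 or 12 weeks old at collection by the labels. Cold-housed mice spent 5 days at 18 °C, 5 days at 14 °C and then 2 weeks at 10 °C, warm-housed mice spent 4 weeks at 34 °C, and the controls of each arm were kept at 22 °C. The cold arm covered interscapular brown fat (iBAT), inguinal subcutaneous fat (ingSAT), perigonadal visceral fat (pgVAT), spleen, bone marrow, liver, ileum, quadriceps muscle, brain, hypothalamus and spinal cord, whereas the warm arm covered iBAT, liver, ileum, quadriceps and brain. All groups shared the wild-type genotype and strain. Most libraries pooled tissue of 2 mice, while those of bone marrow and spinal cord came from single mice. Those of warm-arm iBAT came from 1 mouse at 22 °C and from 1 or 2 at 34 °C, so pooling may differ between these groups. The mice of the cold and warm arms came from different suppliers, so the 10 °C and 34 °C groups were compared with 22 °C libraries of their own arm. Quadriceps was the exception, since its 10 °C and 34 °C groups were both compared with the same 6 libraries labelled as room temperature, whose arm the labels do not give. In the column names the 10 °C libraries and 3 of these controls are headed QM. The 34 °C libraries and the other 3 controls are headed QC. The labels do not explain these prefixes, so the main quadriceps tests may mix controls of both arms.

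Macrophages are resident phagocytes that engulf dead cells, debris and microbes, and most tissues hold a population of their own. They depend on the receptor Csf1r, which binds the growth factors Csf1 and Il34. In fat, macrophages lie along vessels and between adipocytes, clear dying adipocytes and take up lipid, and their number and state are known to vary with nutrition and with the type of depot. In bulk tissue a lower level of such a gene can come from fewer cells or from less RNA per cell, and these cannot be told apart here.

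The members fall into 3 roles. The lineage and growth-factor genes are Csf1r, the receptor tyrosine kinase just described, and Adgre1 (GRCm38, chromosome 17, 57358691-57483527, plus strand), an adhesion G-protein-coupled receptor used as a general surface marker of mouse macrophages. The scavenging and uptake genes are Mrc1 (chromosome 2, 14229392-14332057, plus strand), the mannose receptor, Cd163 (chromosome 6, 124304656-124330527, plus strand), the scavenger receptor for haemoglobin bound to haptoglobin, Trem2 (chromosome 17, 48346401-48354147, plus strand), a lipid-sensing receptor that signals through Tyrobp, and Cd68 (chromosome 11, 69664213-69666153, minus strand), a glycoprotein of lysosomes and late endosomes. The last group holds genes shared with other leukocytes, namely Lyz2 (chromosome 10, 117277331-117282321, minus strand), a lysozyme of macrophages and neutrophils, and Itgax (chromosome 7, 128129547-128150657, plus strand), an integrin subunit of dendritic cells and of some macrophages.

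PU.1, the factor encoded by Spi1, is a central regulator of myeloid genes and binds purine-rich boxes, so the member promoters were searched for the box GAGGAA on both strands (TTCCTC on the other strand) over 250 bases before the start. Of the 6 members in the RefSeq promoter table, Cd68, Mrc1 and Trem2 held a match and Itgax, Cd163 and Lyz2 did not, while 23.3% of all 32851 promoters held one. Such a match is a stretch of letters and no evidence of binding. The windows of 30 bases shown here carry the match in capitals, from GRCm38.p6 at chr11:69666378-69666407 (minus strand, 225 bases before the start), chr2:14229222-14229251 (plus strand, 180 bases before the start, the farthest of 3 matches) and chr17:48346349-48346378 (plus strand, 40 bases before the start).
Cd68: tttcttaccaatGAGGAAagggcttcccat
Mrc1: ctcctacacatgTTCCTCtctccccttcct
Trem2: agcctcctttccTTCCTCcctccctcacgc

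Levels are given as CPM, gene counts relative to the library's total, scaled by TMM, a factor that evens out library composition, within the libraries of each comparison. Library totals ran from 4262403 to 62880248 counts with a median of 21585677.0, and the smallest were 22 °C pgVAT replicates 3 and 2. Several libraries stood apart in genes of other cells. In pgVAT, the summed CPM of 10 epididymis genes was 24210 and 28863 in 10 °C replicates 1 and 3 but 5.27 in replicate 2, with 853 to 2990 at 22 °C. The brown adipocyte gene Ucp1 read 307 CPM in 22 °C replicate 3 of pgVAT, against 1.18 to 8.16 CPM in the other 5 pgVAT libraries. In brain, 22 °C replicate 2 held 37865 CPM of the liver gene Alb, against 1.57 to 7.11 in the other 5 cold-arm libraries. In warm-arm iBAT, summed skeletal muscle genes stood at 4.01, 6433 and 10.3 CPM at 22 °C and at 5128, 1419 and 1559 CPM at 34 °C. Some member values that rest on the brain and pgVAT libraries are also given without them. The correlations across tissues include all of these libraries, and the main tests between fat depots include the pgVAT ones.

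At 22 °C the white depots carried more of the macrophage genes than brown fat did. In a fit over the 18 fat libraries of the cold arm, all 8 members were higher in ingSAT than in iBAT (43.9% of all genes tested differed, 21.2% being higher), and all 8 were also higher in pgVAT than in iBAT (48.4% differed, 24% being higher). Between ingSAT and pgVAT only Cd163 passed the test (6.9% of all genes). On the CPM scale of this fit, Csf1r read 50.7, 47.4 and 55.6 in the iBAT replicates, 311, 246 and 143 in ingSAT and 134, 84.3 and 86.8 in pgVAT. Lyz2 read 166, 103 and 110 CPM in iBAT, 772, 381 and 530 CPM in ingSAT and 541, 341 and 310 CPM in pgVAT. The lowest white-depot library was above the highest iBAT library for each of these genes.

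In the fit over all 18 libraries the widest steps from brown to white fat were those of Trem2 and Itgax. Trem2 read 0.378, 0.818 and 0.724 CPM in iBAT, 16.7, 2.66 and 2 CPM in ingSAT and 9.28, 4.73 and 8.84 CPM in pgVAT. The log2 difference from iBAT was 3.42 ± 0.77 (SE) in ingSAT and 3.53 ± 0.77 in pgVAT (edgeR quasi-likelihood test, adjusted p = 0.002 and 0.0017). Itgax read 1.32, 1.77 and 1.45 CPM in iBAT, 18, 7.79 and 5.03 CPM in ingSAT and 11, 6.92 and 7.69 CPM in pgVAT, with log2 differences of 2.75 ± 0.46 and 2.49 from iBAT (edgeR, adjusted p = 0.00021 and 0.00043). For both genes the iBAT libraries lay below every white-depot library, whereas ingSAT and pgVAT overlapped. With 1 library left out, the ingSAT step went down to 1.83 for Trem2 and 2.07 for Itgax. That of Cd163 stayed at 2.26 or more, so the order in ingSAT depended on the libraries kept. In pgVAT the lowest steps of Trem2 and Itgax, 3.29 and 2.26, stayed above the highest of Lyz2, 1.90.

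Among the other members, the step from iBAT to ingSAT was 2.38 for Cd163, 2.18 for Csf1r, 2.15 ± 0.32 for Lyz2, 2.10 for Adgre1, 2.08 for Mrc1 and 1.88 for Cd68 on the log2 scale (edgeR, adjusted p between 6.9e-05 and 0.00057). The step from iBAT to pgVAT was 1.66 for Lyz2 (edgeR, adjusted p = 0.00053) and near 1 for Adgre1 (0.99), Csf1r (0.99), Mrc1 (0.99), Cd163 (0.97) and Cd68 (0.93), with edgeR adjusted p between 0.028 and 0.048. These last 5 calls were lost without iBAT 22 °C replicate 2, without iBAT 22 °C replicate 3 or without pgVAT 22 °C replicate 1, and the 3 that stayed were those of Itgax, Trem2 and Lyz2. Cd163, the scavenger receptor, read 34.7, 23.5 and 26.6 CPM in iBAT, 166, 157 and 119 CPM in ingSAT and 68.8, 43.2 and 53 CPM in pgVAT. Its ingSAT libraries stood above every pgVAT library, with a log2 difference of 1.42 ± 0.38 (edgeR, adjusted p = 0.037), a call that was lost in 9 of the 18 fits that left out 1 library. For the other 7 members the difference between the white depots ran from −0.11 ± 0.67 for Trem2 to 1.19 for Csf1r (edgeR, adjusted p = 0.96 and 0.054).

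**Figure D1:**
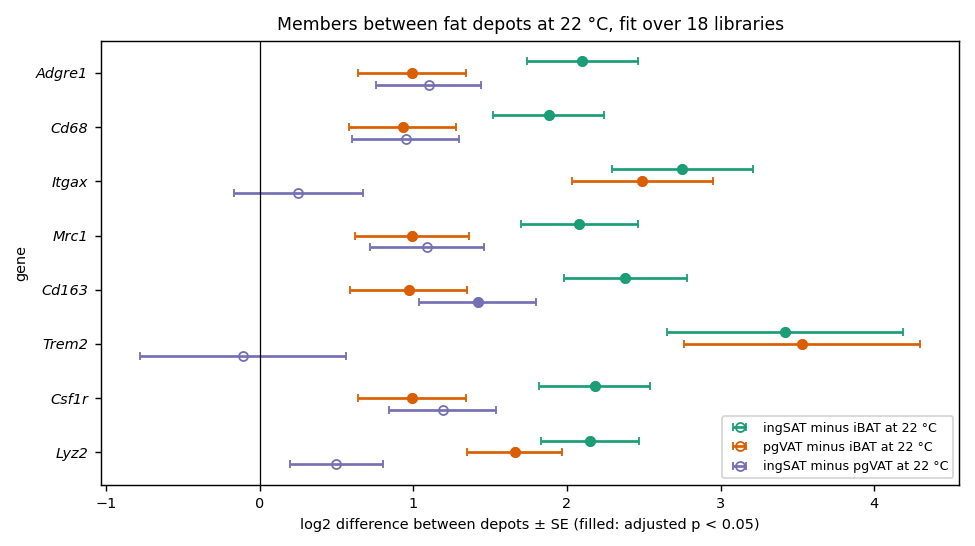
Differences of the 8 genes between fat depots at 22 °C on the log2 scale (x axis; points with SE bars, filled where the adjusted p was under 0.05), from the fit over 18 libraries. All 8 ingSAT to iBAT and all 8 pgVAT to iBAT points are filled and lie right of 0, while of the ingSAT to pgVAT points only that of Cd163 is filled.

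In ingSAT all 8 macrophage genes had a log2 difference below 0 at 10 °C, from −2.38 for Trem2 to −0.20 for Lyz2, with a median of −0.68 against −0.01 over all genes. None of the 8 passed the adjusted test (7.51% of all genes tested did). At the limits the study used, an unadjusted p of at most 0.05 with a fold over 1.5, 4 members were lower, namely Cd68, Cd163, Trem2 and Csf1r, and 9.14% of all genes were lower by these limits. By other tools, the exact test called 2 members (Cd163 and Csf1r) and DESeq2 called 4 (Cd163, Cd68, Csf1r and Trem2). Brown adipocyte genes rose in the same libraries, 7 of 7 on the list, with Ucp1, the uncoupling protein that makes heat, up 7.35 on the log2 scale.

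Csf1r (GRCm38, chromosome 18, 61100598-61132149, plus strand) in ingSAT read 349, 275 and 155 CPM at 22 °C and 162, 102 and 112 CPM at 10 °C. The groups overlapped by 1 library, since the lowest control lay just under the highest 10 °C value, and the log2 difference was −1.05 ± 0.32 (edgeR, adjusted p = 0.089). Adgre1, the surface marker, read 166, 70.9 and 64.4 CPM at 22 °C and 73.4, 51.1 and 60.8 CPM at 10 °C, a log2 difference of −0.70 ± 0.37 (edgeR, adjusted p = 0.26). Here control replicate 1 stood apart, and the other controls lay within the range of the cold libraries.

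Of the uptake genes, Cd163 read 186, 176 and 129 CPM at 22 °C and 125, 91.1 and 95.3 CPM at 10 °C. Every 10 °C library was below every control, with a log2 difference of −0.65 ± 0.19 (edgeR, adjusted p = 0.081). Cd68 read 51.5, 25.6 and 22 CPM against 16.6, 17.3 and 18.4 CPM, again without overlap, a log2 difference of −0.92 ± 0.32 (edgeR, adjusted p = 0.12). These were the 2 members whose groups did not overlap, as was so for 32.8% of all genes.

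Mrc1 read 463, 351 and 287 CPM at 22 °C and 369, 224 and 251 CPM at 10 °C in ingSAT, with overlap and a log2 difference of −0.38 ± 0.25 (edgeR, adjusted p = 0.36). Trem2 was read thinly, with 197, 42 and 33 reads at 22 °C and 36, 9 and 13 reads at 10 °C, or 18.8, 2.98 and 2.17 CPM against 2.98, 0.647 and 0.961 CPM. Control replicate 1 was far above the rest, the groups overlapped, and the log2 difference of −2.38 ± 0.98 (edgeR, adjusted p = 0.17) had the widest error of the 8. Itgax read 20.2, 8.72 and 5.47 CPM against 4.55, 10.3 and 7.54 CPM (log2 −0.61 ± 0.52, edgeR adjusted p = 0.47), and Lyz2 867, 426 and 575 CPM against 521, 610 and 498 CPM (log2 −0.20 ± 0.26, edgeR adjusted p = 0.65). All cold libraries lay inside the control range for Lyz2, and all but 1 did for Itgax.

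Control replicate 1 was the highest ingSAT library for all 8 members. Without it no member was called, the log2 differences of Csf1r, Trem2, Cd163 and Cd68 were −0.78, −0.76, −0.55 and −0.45, and those of the other 4 lay between −0.18 and 0.12. Without control replicate 3, the lowest control for all members but Lyz2, 3 were called lower by edgeR, Csf1r by −1.29 (adjusted p = 0.017), Cd163 by −0.77 (adjusted p = 0.029) and Cd68 by −1.12 (adjusted p = 0.036). The call in this depot thus turned on which control library was present.

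The growth factors of Csf1r did pass the test in ingSAT. Csf1, made by adipocytes and stromal cells, read 114, 133 and 65.4 CPM at 22 °C and 43.9, 34.4 and 44.6 CPM at 10 °C, and fell by 1.34 ± 0.27 on the log2 scale (edgeR, adjusted p = 0.032). Il34, the second ligand, read 16.5, 15.6 and 16.1 CPM against 8.28, 7.19 and 9.24 CPM, and fell by 0.96 ± 0.16 (edgeR, adjusted p = 0.02). All cold libraries lay below all controls for both ligands. Of the 9 tested genes of a list built around this receptor, its ligands, related receptors and myeloid transcription factors, these were the 2 that fell, and the list's median was −0.49.

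Of 6 genes of the Trem2 pathway, Apoe, a lipid carrier that Trem2 binds, was the 1 that fell in ingSAT, by 1.13 ± 0.26 (edgeR, adjusted p = 0.046), from 3406, 3742 and 3280 CPM to 2182, 1270 and 1316 CPM. Apoe is also made by adipocytes and other cells. Among 20 further macrophage and monocyte genes, such as Itgam, C1qa and Mertk, none passed the edgeR test and 17 had a difference below 0, with a median of −0.73 against −0.01 over all genes. Their summed level was 976 to 2119 CPM at 22 °C and 833 to 892 CPM at 10 °C. Of 12 genes on a list for resident macrophages 3 fell, Gas6 by 1.35, Lyve1 by 0.88 and Cd209f by 0.50 (edgeR, adjusted p under 0.05). Which cells of the depot these 3 came from was not tested. Of the other cell types, B cell genes summed to 195 to 519 CPM at 22 °C and 219 to 957 CPM at 10 °C, T cell genes to 53 to 111 and 14.3 to 238 CPM, and skeletal muscle genes to 1339 to 3271 and 33.4 to 2024 CPM. Their part in the member differences was not tested.

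**Figure D2:**
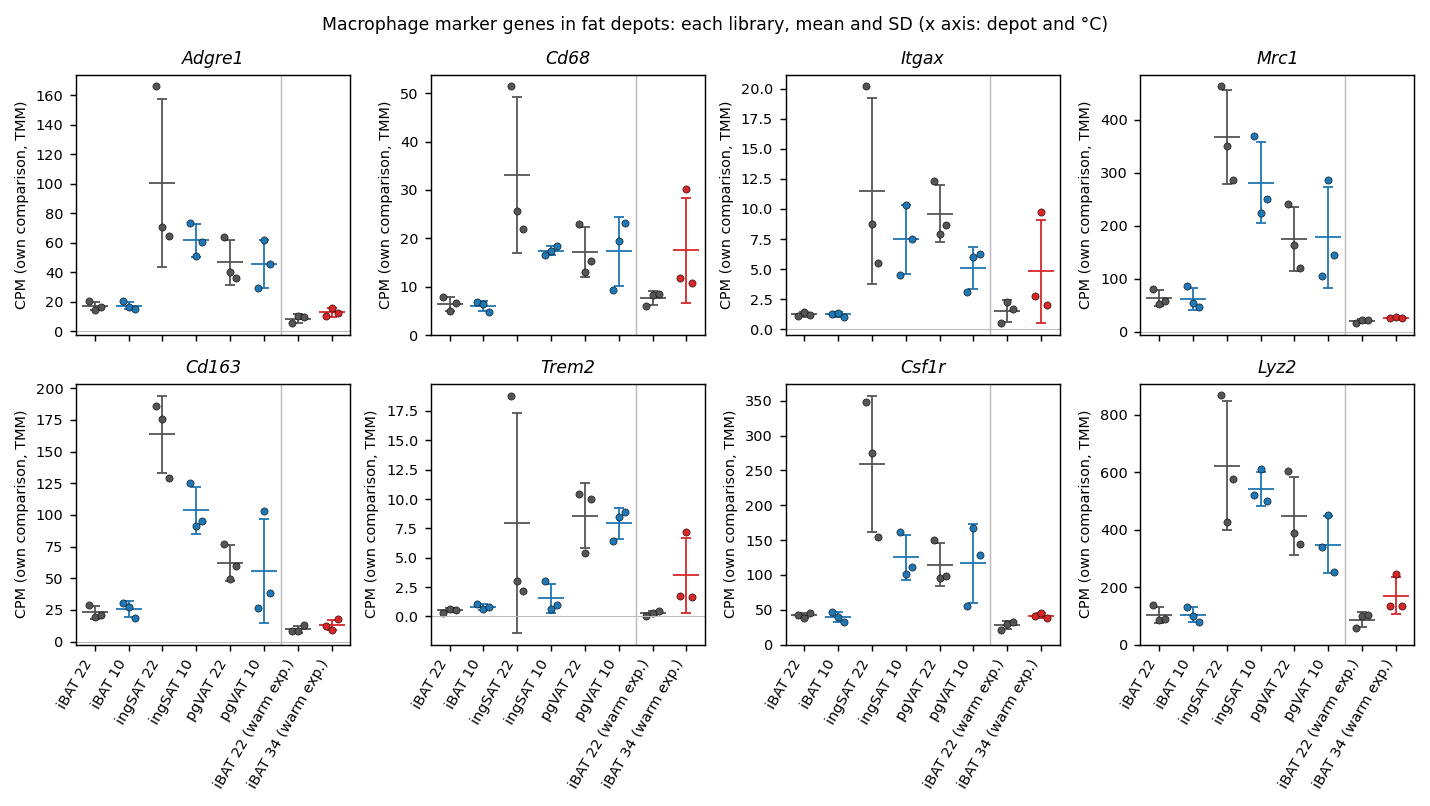
CPM of the 8 genes in each fat library (y axis, scaled within each comparison; points are libraries, bars the mean and SD of 3), for iBAT, ingSAT and pgVAT at 22 °C and 10 °C and, right of the vertical line, for the warm arm's iBAT at 22 °C and 34 °C. In ingSAT 1 control library is above all others in each panel, such as 166 CPM of Adgre1 against 70.9 and 64.4, and in iBAT at 34 °C Csf1r lies at 38.1 to 45.4 CPM, above the 21.4 to 32.4 CPM of its controls.

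In iBAT at 10 °C the 7 members that passed the filter on low counts differed from 22 °C by −0.10 to 0.15 on the log2 scale, with a median of −0.02, equal to that of all genes. None was called by edgeR, by the exact test or by DESeq2, and 0 had an unadjusted p under 0.05, while 11.3% of all genes tested in this depot were called. Csf1r read 41.8, 38.9 and 44.7 CPM at 22 °C and 47.2, 40.3 and 32.9 CPM at 10 °C, and Adgre1 read 20.3, 14.6 and 16.5 CPM against 20.3, 16.6 and 15.4 CPM. The log2 differences were −0.06 ± 0.14 and 0.03 ± 0.16, and the cold libraries spread around the controls. Cd163 had the highest value, 0.15 ± 0.21, from 28.6, 19.3 and 21.4 CPM to 30.7, 27.3 and 18.4 CPM, also with overlap. Trem2 was below the filter, with 4, 12 and 14 reads at 22 °C and 21, 9 and 12 reads at 10 °C.

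Genes around the members moved in cold iBAT although the members did not pass. Apoe fell by 1.15 ± 0.20 (edgeR, adjusted p = 0.0094), the 1 of 6 genes of the Trem2 pathway that did. None of the 20 further macrophage and monocyte genes was called, 14 having a difference below 0 and their median being −0.14. Of 9 tested genes of lipid-laden macrophages 3 rose (edgeR), Plin2 by 1.29, Fabp5 by 1.13 and Lipa by 0.77, genes of lipid storage, fatty-acid binding and lysosomal lipid breakdown that brown adipocytes also express.

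In pgVAT at 10 °C the members' log2 differences ran from −0.93 to 0.03 with a median of −0.08, against 0.03 over all genes. None was called by edgeR, by the exact test or by DESeq2 and 0 had an unadjusted p under 0.05. This comparison called 0% of 14856 genes, although 1207 genes had an unadjusted p under 0.05. Itgax, the integrin subunit, read 12.3, 7.89 and 8.67 CPM at 22 °C and 3.06, 5.97 and 6.22 CPM at 10 °C. All its cold libraries lay below the controls, as the libraries of 11.8% of genes did not overlap here, and the log2 difference was −0.93 ± 0.39 (edgeR, adjusted p = 0.59).

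In pgVAT the cold libraries lay far from each other. Csf1r read 150, 96.2 and 98 CPM at 22 °C and 55.1, 167 and 128 CPM at 10 °C, and Cd163 read 76.9, 49.3 and 59.9 CPM against 26.4, 103 and 38.6 CPM. The cold replicate 1 was the lowest of the 6 and cold replicate 2 the highest for both genes. Mrc1 showed the same order, with 240, 164 and 120 CPM against 104, 286 and 145 CPM. The epididymis gene Adam7 read 5608, 0.913 and 9942 CPM in the same cold libraries and 65.6, 230 and 243 CPM in the controls, so the cold libraries with epididymis RNA were not those with the highest levels of these 3 genes. With cold replicate 2 as the only cold library, assumed to vary like the controls, no member was called, and the log2 differences were 0.75 for Cd163, 0.73 for Mrc1, 0.56 for Csf1r, 0.41 for Adgre1 and −0.68 for Itgax. With 1 library left out, the log2 difference ran from −0.50 to 0.33 for Mrc1 and from −0.34 to 0.36 for Csf1r. Those of Cd163, Adgre1, Cd68 and Trem2 also took both signs, while those of Itgax and Lyz2 stayed negative. The direction of all members but Itgax and Lyz2 in pgVAT therefore rested on the libraries kept.

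The difference of the cold response between depots was tested in the fit over 18 libraries. No member passed in any of the 3 pairs of depots (24 tests, edgeR; 0.0691%, 0.407% and 0.159% of all genes passed for ingSAT against iBAT, pgVAT against iBAT and ingSAT against pgVAT), and none passed in DESeq2. At an unadjusted p under 0.05 there were 3, Trem2 in ingSAT against iBAT (−2.98 ± 1.05, edgeR, adjusted p = 0.3), Trem2 in ingSAT against pgVAT (−2.24, edgeR, adjusted p = 0.29) and Csf1r in ingSAT against pgVAT (−1.07, edgeR, adjusted p = 0.32). The pairs share libraries, so these values are not independent of each other.

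In iBAT at 34 °C all 8 had a log2 difference above 0, from 0.42 for Cd163 to 3.70 for Trem2, with a median of 0.77 against 0.02 over all genes, and Trem2, Csf1r and Lyz2 rose. These 3 of 8 stand beside 28.9% of all genes called and 13.5% called higher in this comparison. At the study's limits 3 members were higher, Trem2, Lyz2 and Cd68 (12.2% of all genes), as Csf1r missed the limit on fold. The libraries of 5 members did not overlap between groups, as was so for 48.6% of genes.

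Trem2, the lipid-sensing receptor, read 0.0368, 0.267 and 0.465 CPM at 22 °C and 1.7, 7.15 and 1.61 CPM at 34 °C, from 1, 9 and 17 reads against 72, 305 and 55 reads. Every warm library was above every control, and the log2 difference was 3.70 ± 0.87, or 13-fold (edgeR, adjusted p = 0.02). Csf1r read 21.4, 29.4 and 32.4 CPM at 22 °C and 40.4, 45.4 and 38.1 CPM at 34 °C, without overlap, and rose by 0.57 ± 0.16 (edgeR, adjusted p = 0.033). Lyz2 read 58, 101 and 102 CPM against 134, 244 and 133 CPM, also without overlap, and rose by 0.97 ± 0.30 (edgeR, adjusted p = 0.049). Thus the gene with the fewest reads had the widest step and the most abundant one sat at the threshold.

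Of the members that did not pass, Cd68 read 5.95, 8.31 and 8.56 CPM at 22 °C and 11.9, 30.1 and 10.8 CPM at 34 °C (log2 1.21 ± 0.40, edgeR adjusted p = 0.058). Mrc1 read 15.3, 21 and 21.7 CPM against 25.8, 26.6 and 26.5 CPM (log2 0.44 ± 0.14, edgeR adjusted p = 0.051). Neither gene's groups overlapped. Itgax read 0.478, 2.26 and 1.72 CPM against 2.73, 9.75 and 1.99 CPM (log2 1.69 ± 0.73, edgeR adjusted p = 0.12), Adgre1 5.37, 10.6 and 9.9 CPM against 10.1, 16 and 12.6 CPM (log2 0.58 ± 0.28, edgeR adjusted p = 0.16) and Cd163 8.05, 8.34 and 13 CPM against 12.1, 9.5 and 17.7 CPM (log2 0.42 ± 0.28, edgeR adjusted p = 0.28). In these last 3 genes at least 1 warm library lay within the control range.

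The 34 °C replicate 2 was the highest library for 7 of the 8 members, all but Cd163. Without it no member was called, Trem2 was below the filter on low counts, and the other log2 differences were 0.37 to 0.64, among them 0.60 for Lyz2 (edgeR, adjusted p = 0.12) and 0.48 for Csf1r (edgeR, adjusted p = 0.098). Without 34 °C replicate 1 or without 22 °C replicate 1 only Trem2 was called (edgeR, adjusted p = 0.04 and 0.049). Without 22 °C replicate 2, the control rich in muscle genes, the same 3 members were called, Trem2 at 3.68, Csf1r at 0.62 and Lyz2 at 1.09 (edgeR, adjusted p = 0.033, 0.04 and 0.045), while the muscle genes stood at over 1000 CPM in every 34 °C library. Of the 6 fits that left out 1 library, the call of Trem2 held in 5, that of Csf1r in 2 and that of Lyz2 in 1. Brown adipocyte genes took up 10974 to 14691 CPM at 22 °C and 5903 to 7310 CPM at 34 °C, 4 of 7 being lower, and Ucp1 read 8241, 5489 and 6289 CPM against 1265, 1691 and 1230 CPM. Endothelial genes summed to 698 to 910 CPM at 22 °C and 944 to 1319 CPM at 34 °C. With scaling by library size alone the median of all genes in this comparison was 0.30 instead of 0.02, and 6 members were called higher. The part of these other cells in the member differences was not tested.

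A ligand of Csf1r and partners of Trem2 rose too in warm iBAT. Il34 read 5.51, 5.43 and 5.42 CPM at 22 °C and 11.1, 10.8 and 10.8 CPM at 34 °C, a rise of 1.0 ± 0.13 on the log2 scale (edgeR, adjusted p = 0.0028) with little spread within either group. It was 1 of 4 of the 9 tested genes around Csf1r that rose, with Csf2ra by 0.94 and Csf2rb by 0.87 among the others, and the list's median was 0.87. Csf1 read 14.1, 17.8 and 19.2 CPM against 31.6, 34.1 and 22.5 CPM, without overlap, as was so for 48.6% of all genes. Of the 6 genes of the Trem2 pathway 4 rose, among them its signalling partner Tyrobp by 1.12, from 5.48, 9.59 and 9.35 CPM to 12.8, 25.9 and 14.5 CPM (edgeR, adjusted p = 0.037), and Apoe by 0.90, from 1084, 835 and 994 CPM to 2065, 1296 and 2082 CPM (edgeR, adjusted p = 0.017).

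Of the 20 further macrophage and monocyte genes all had a difference above 0 in warm iBAT, with a median of 0.88, and 3 rose by edgeR, the membrane protein gene Ms4a6c by 1.08, the NADPH oxidase subunit gene Cybb by 1.04 and the lipopolysaccharide co-receptor gene Cd14 by 0.89. Of 11 tested genes on the list for resident macrophages 3 rose, Gas6 by 1.26, Stab1 by 0.75 and Cbr2 by 0.61, and their cell source was not tested. The 11 tested genes of lipid-laden macrophages went both ways, with Mmp12 up 4.56 and Cd9 up 0.64, while Plin2 fell by 1.38 and Lipa by 0.76, both genes that adipocytes use as well. Lyz1 is the lysozyme gene that shares 195 of 1267 windows of 50 bases (15.4%) with Lyz2, so reads from those windows match both genes. Lyz1 differed by 0.61 (edgeR, adjusted p = 0.17) in these libraries.

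Bone marrow, where monocytes are made, was the tissue with the most members called at 10 °C and the one with the most libraries, 6 a group. Cd163 and Mrc1 rose, and Lyz2, Itgax and Csf1r fell, 5 of 8 members beside 19% of all genes called (7.33% higher and 11.6% lower). The groups of all 8 members overlapped, while those of 5.84% of all genes did not. Cd163 ran from 40.2 through a median of 56.2 to 73.9 CPM at 22 °C and from 73.8 through 92.9 to 113 CPM at 10 °C, so that its groups only touched. Its rise of 0.70 ± 0.14 on the log2 scale (edgeR, adjusted p = 0.0055) was the 1 change among the members that also passed the study's limits, which 0.647% of all genes passed on the higher side. Mrc1 ran from 73.9 through 119 to 150 CPM and from 136 through 155 to 166 CPM, a rise of 0.44 ± 0.14 (edgeR, adjusted p = 0.045).

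Lyz2, by far the most abundant member in marrow, ran from 4022 through 5479 to 6565 CPM at 22 °C and from 3799 through 4082 to 4363 CPM at 10 °C. It fell by 0.40 ± 0.09 (edgeR, adjusted p = 0.011), and the control libraries spread more widely than the cold ones. Itgax ran from 23.2 through 26.6 to 31 CPM and from 20.5 through 21.4 to 25.5 CPM, a fall of 0.28 ± 0.07 (edgeR, adjusted p = 0.017). Csf1r ran from 213 through 252 to 281 CPM and from 201 through 216 to 222 CPM, a fall of 0.22 ± 0.07 (edgeR, adjusted p = 0.029). The lower part of the control range overlapped the cold range in all 3 genes. Adgre1 (−0.04), Cd68 (0.02) and Trem2 (−0.25 ± 0.15) were not called (edgeR, adjusted p = 0.78, 0.87 and 0.25). The calls of Cd163, Lyz2 and Itgax held in all 12 fits that left out 1 library, that of Csf1r in 6 and that of Mrc1 in 3. Without 22 °C replicate 1, 2 or 5, or without 10 °C replicate 1, 2 or 5, 3 members were called.

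**Figure D3:**
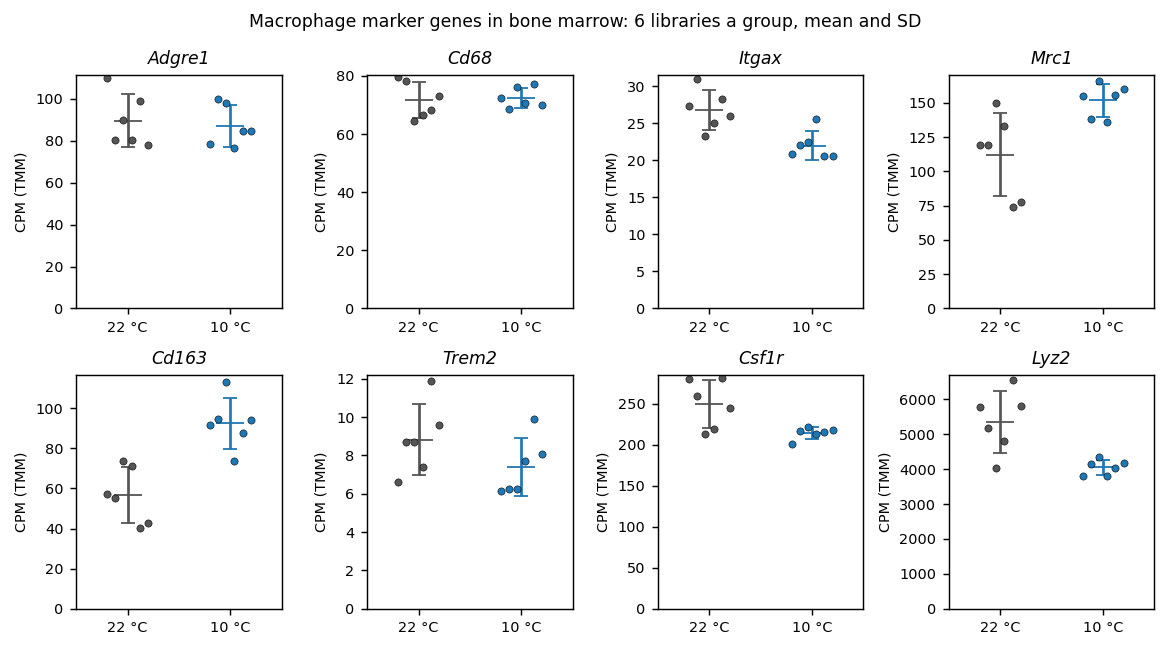
CPM of the 8 genes in each bone marrow library (y axis; points are libraries, bars the mean and SD of 6) at 22 °C and 10 °C. The Cd163 groups touch only at 73.9 and 73.8 CPM, the Lyz2 controls spread from 4022 to 6565 CPM and the cold libraries from 3799 to 4363 CPM, and Adgre1 and Cd68 overlap over most of their range.

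Other myeloid genes of the marrow moved at 10 °C as well. Of the 20 further macrophage and monocyte genes 12 fell, such as Itgam by 0.47, Msr1 by 0.45 and Ms4a6c by 0.43, and 1 rose, the apoptotic-cell receptor gene Mertk by 0.50 (edgeR, adjusted p under 0.05), with a list median of −0.28 against 0.01 over all genes. Of 8 blood monocyte genes 6 fell, among them Chil3 by 0.52 and Ly6c2 by 0.46. Of the 9 tested genes around Csf1r 5 fell, with Csf2rb by 0.50 and Csf3r by 0.49. Of 11 tested genes of resident macrophages 4 rose, among them Cd209g by 1.29, Cd209f by 1.09 and Folr2 by 0.99, while F13a1 fell by 0.34 and 6 did not pass. Of 5 tested genes of a list for splenic red pulp, which also holds erythroid genes, 3 rose, Hmox1, the haem-degrading enzyme, by 0.56, the adhesion gene Vcam1 by 0.31 and Epor, the erythropoietin receptor of red-cell precursors, by 0.29. Beside these, neutrophil genes summed to 44670 to 65300 CPM at 22 °C and 41270 to 43893 CPM at 10 °C, with 9 of 11 lower, and B cell genes to 523 to 723 and 727 to 850 CPM, with 4 of 7 higher. What part these cells had in the members' values was not tested.

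In the other 7 tissues of the cold arm, no member was called by edgeR in 48 tests. In spleen (0.0779% of all genes called), Cd68 read 77.7, 88.1 and 86.6 CPM at 22 °C and 70.4, 65.6 and 73.3 CPM at 10 °C, without overlap (15.7% of genes), with a log2 difference of −0.27 ± 0.08 (edgeR, adjusted p = 0.49). It was the 1 member there with an unadjusted p under 0.05, and DESeq2 called none. In ileum (0.0639% called), Csf1r read 62.7, 70.1 and 54.3 CPM against 42.5, 51 and 41.6 CPM, without overlap (23.6% of genes), with a log2 difference of −0.47 ± 0.12 (edgeR, adjusted p = 0.14). DESeq2 called this value (adjusted p = 0.016). Itgax in ileum, the gene shared with dendritic cells, read 24.1, 32 and 29.8 CPM against 17.5, 23.3 and 25 CPM, with overlap (log2 −0.39, edgeR adjusted p = 0.28). In the same ileum libraries B cell genes summed to 29.3, 213 and 541 CPM at 22 °C and to 24.6, 112 and 360 CPM at 10 °C, with 8 of 8 differences below 0 (median −0.69), and T cell genes to 65, 108 and 123 CPM and to 69.8, 70.4 and 96.3 CPM, with 9 of 9 below 0 (median −0.43). No gene of either list was called, and their part in the member values was not tested.

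In liver and quadriceps the differences at 10 °C were above 0 for all 6 members tested. Liver ran from 0.14 to 0.53 (0% of genes called, 2233 genes at an unadjusted p under 0.05), with Mrc1 at 34.4, 66.4 and 67.5 CPM at 22 °C and 81.7, 71.4 and 89.8 CPM at 10 °C (log2 0.53 ± 0.22, edgeR adjusted p = 0.24). Its groups did not overlap (24.1% of genes), and control replicate 1 was the lowest liver library for all 6 members. Without that library the differences were 0.27 for Mrc1, 0.17 for Cd68, 0.02 for Adgre1, −0.04 for Cd163, −0.04 for Csf1r and −0.09 for Lyz2, so the direction of the last 3 turned. Endothelial genes of the liver had differences above 0 in 10 of 10 (median 0.32, none called) and summed to 236 CPM in that library, to 387 and 383 CPM in the other controls and to 399 to 449 CPM at 10 °C. Quadriceps ran from 0.33 to 0.54 (0.338% called), with Mrc1 at 17.1 to 23.9 CPM and a median of 20.4 in 6 controls and at 32.3, 39.5 and 17.5 CPM in the cold (log2 0.54 ± 0.21, edgeR adjusted p = 0.34). The third cold muscle library was the lowest of its group, and without it Mrc1 was called at 0.81 (edgeR, adjusted p = 0.022) while the others stood at 0.63 to 0.88 and were not called. Without the second cold library the values ran from −0.07 for Csf1r to 0.29 for Mrc1. Adipocyte genes summed to 632, 768 and 276 CPM in the cold muscle libraries, against a lowest value of 184 and a median of 322 CPM in the controls, with 8 of 8 differences above 0 (median 0.94, none called), and of the brown adipocyte genes Elovl3 rose (1 of 7). Their part in the member values of liver and muscle was not tested. Mrc1 was the 1 member in each of these tissues with an unadjusted p under 0.05, and DESeq2 called none in either.

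In brain (0% called; 13% of genes without overlap), the low values at 10 °C rested on 1 control library, the one with the liver gene Alb. Mrc1 read 16.3, 70.3 and 11.7 CPM at 22 °C and 11.6, 12.5 and 17.1 CPM at 10 °C, a log2 difference of −1.25 that was −0.03 without that library. Cd163 read 3.74, 16.8 and 2.73 CPM against 2.68, 2.94 and 4.12 CPM, −1.24 with it and 0.01 without. Lyz2 went from −0.91 to 0.01 and Adgre1 from −0.66 to −0.14. The markers of liver macrophages, which are rich in Cd163 and Mrc1, summed to 308 CPM in that library and to 14.2 and 15.3 CPM in the other controls, with Clec4f at 67.9 CPM against 0 in all 5 others. Microglia genes summed to 194 CPM there and to 309 and 312 CPM in the other controls, and Trem2 read 5.46 CPM against 11.1 and 12.6 CPM. Whether liver tissue reached that library was not tested.

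In hypothalamus (0% called), Csf1r, in brain tissue a gene of microglia, read 75.7, 73.9 and 75.2 CPM at 22 °C and 68.7, 68.5 and 69.4 CPM at 10 °C. The groups were tight and did not overlap (11.9% of genes), yet the log2 difference was −0.12 ± 0.05 (edgeR, adjusted p = 0.78). In spinal cord (0.00695% called) the 7 members tested differed by −0.25 to 0.26. DESeq2 called no member in brain, hypothalamus or spinal cord, and no member of brain or spinal cord had an unadjusted p under 0.05 in edgeR.

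In the other 4 warm-arm tissues with libraries here no member was called in 25 tests (edgeR; 0.385% of all genes in liver and 0% in ileum, quadriceps and brain), nor did DESeq2 call one. The members with an unadjusted p under 0.05 were Cd68 and Lyz2, both in ileum. Cd68 read 5.29, 3.73 and 6.17 CPM at 22 °C and 3.97, 2.42 and 3.1 CPM at 34 °C (log2 −0.68 ± 0.27, edgeR adjusted p = 0.59). Lyz2 read 196, 107 and 209 CPM against 134, 81.8 and 85.2 CPM (log2 −0.77 ± 0.30, edgeR adjusted p = 0.59). Both sets overlapped, both passed the study's limits (1.26% of genes lower), and B cell genes, which mark the lymphoid follicles of the gut wall, summed to 75 to 438 CPM at 22 °C and 5.47 to 198 CPM at 34 °C in these libraries. In liver the values ran from −0.23 to 0.18, in quadriceps from −0.41 to −0.07 and in brain from −0.09 to 0.18.

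**Figure D4:**
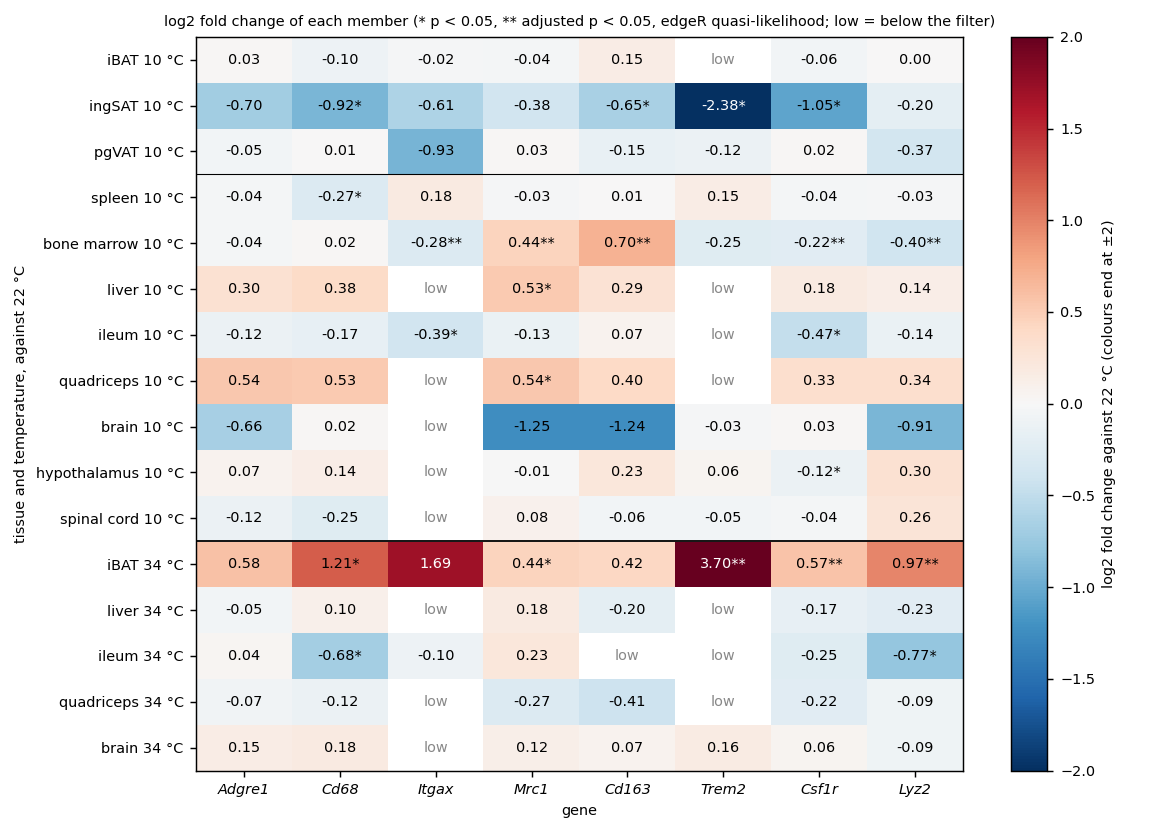
Log2 difference of each gene (columns) from 22 °C in each of 16 comparisons (rows; colours from −2, blue, to 2, red), with 2 asterisks at an adjusted p under 0.05 and 1 at an unadjusted p under 0.05 (edgeR). The 8 called values lie in bone marrow at 10 °C (5) and in iBAT at 34 °C (3), and the ingSAT row at 10 °C is negative in all 8 columns.

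Across the tissues of the cold arm's 8-tissue table at 22 °C, the members ranked differently. Lyz2, Csf1r, Adgre1, Cd68 and Itgax were highest in spleen, with mean levels of 1101, 583, 181, 60.9 and 85.9 CPM, and for Lyz2, Csf1r and Adgre1 ingSAT came next at 575, 241 and 92.8 CPM, below every spleen library. Mrc1 and Cd163, the scavenging pair, were highest in ingSAT, at 339 and 152 CPM. Mrc1 in ingSAT overlapped spleen (286 CPM), whereas Cd163 in ingSAT lay above spleen (65.5 CPM) without overlap. Trem2 had an order of its own, with brain (9.18 CPM), pgVAT (7.65), ingSAT (7.38) and hypothalamus (6.02) overlapping at the top and spleen at 0.716 CPM, below all of them. Over the 56 neighbouring steps in these orders, 24 were free of overlap between the libraries, and 28 without brain replicate 2, the library with Alb. Without it the brain mean was 11.6 CPM for Trem2, 13.7 CPM for Mrc1 and 12.8 CPM for Lyz2. The 2 other brain libraries read 10.9 and 12.4 CPM of Trem2, above every pgVAT library (at most 9.54) and every hypothalamus library (at most 6.18). They still overlapped ingSAT (1.99 to 17.4 CPM).

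The spread of a member over the 8 tissues also differed. Itgax spanned 325-fold between spleen and hypothalamus (0.265 CPM) and Lyz2 158-fold between the same tissues (6.96 CPM at the low end), whereas Csf1r spanned 11.7-fold, from spleen to iBAT (49.9 CPM). The low end of Itgax rested on 3, 7 and 7 reads, so the size of its span is uncertain. iBAT stood among the low tissues for Trem2 (0.626 CPM), Itgax (1.48 CPM) and Csf1r. Per kilobase of exon, Lyz2 led the members in spleen (837 CPM per kb), ingSAT (437), pgVAT (304), ileum (101), iBAT (93.3) and liver (73.9), while Csf1r led in brain (23.6, or 26.3 without replicate 2) and hypothalamus (12.4). Next to Csf1r in brain, Trem2 stood at 10.2 and Lyz2 at 9.72 CPM per kb without that library. Within ingSAT the order per kilobase went on with Mrc1 (63.2), Csf1r (48.3), Cd163 (33.8), Adgre1 (28.7), Cd68 (24.3), Trem2 (6.46) and Itgax (2.45). The ileum value of Lyz2 has to be read beside Lyz1, the Paneth cell lysozyme, which shares sequence with it and read 6831 to 7631 CPM in the cold arm's ileum at 22 °C.

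**Figure D5:**
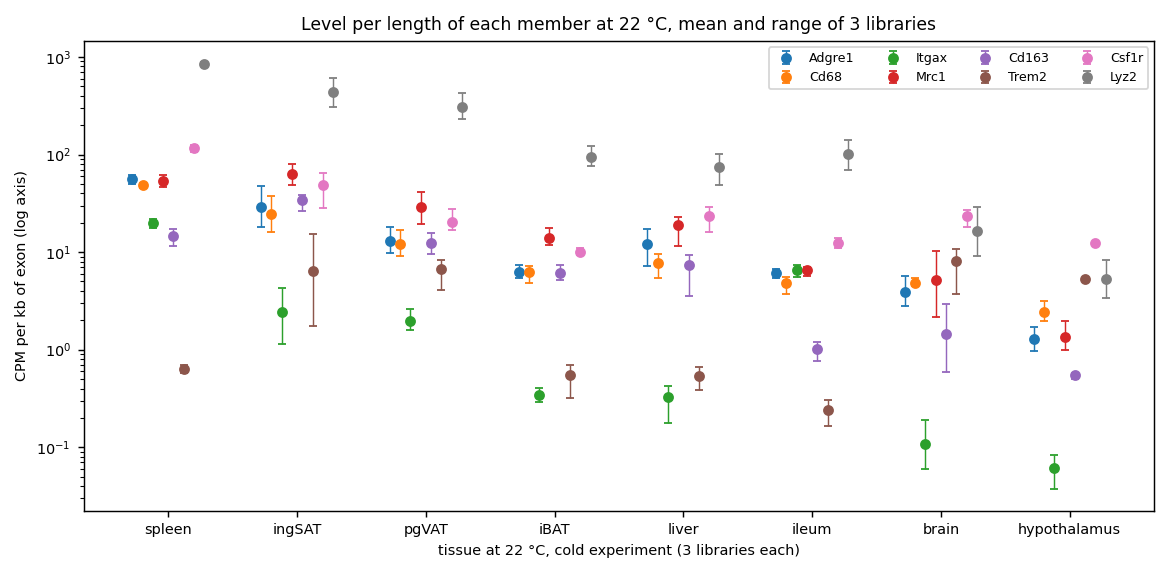
Level of each gene per kilobase of exon (y axis, log scale, CPM per kb) in the 8 tissues at 22 °C, as mean and range of 3 libraries. Lyz2 is the top point in the tissues from spleen to ileum, Csf1r is top in brain and hypothalamus, and Trem2 is low in spleen (0.627) but above Itgax in all 3 fat depots.

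The genes whose levels followed each member most closely over the 48 libraries of that table were found by Pearson correlation of log2 CPM over 15935 genes, as a description across libraries that share tissues and library composition. Csf1r lay closest to the complement genes C1qa (r = 0.942), C1qc (0.934) and C1qb (0.926), which macrophages and microglia express. Mrc1 and Cd163 were near each other (0.963), and both lay close to Siglec1, the macrophage sialic acid receptor (0.962 and 0.95). Cd68 lay closest to C1qc (0.965) and to Spi1 (0.961), the gene of PU.1. Adgre1 followed Lrrc25 (0.968) and Slc11a1 (0.967), a metal transporter of phagosomes, and Lyz2 followed Tlr8 (0.987) and Pirb (0.983). Itgax lay closest to Cyba (0.982), Cd244a (0.972) and Nkg7 (0.969), a gene of cytotoxic lymphocytes. Trem2 had the loosest neighbours, Zfpm2 (0.921), Abca4 (0.909) and Lrpap1 (0.901).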

How the data were processed

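RNA was extracted with Trizol, or for bone marrow with a column kit by the study's methods, and sequenced in bulk. The values used here are raw counts per gene, deposited by the authors in 4 tables and made with STAR and HTSeq on mm10. The versions given are 2.6.0c and 0.9.1 in the methods and 2.5.3a and 0.6p1 in the submitters' processing notes. A protocol field on every label gives the 34 °C treatment, so groups were taken from titles and treatment labels.

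The libraries of a comparison were fitted by themselves in edgeR 4.0.16 (R 4.3.3) with TMM scaling, genes above an average log2 CPM of 0, the quasi-likelihood test (two-sided) and Benjamini-Hochberg adjustment over all genes tested. A gene was called at an adjusted p under 0.05. SE is the log2 difference divided by the square root of F. Named genes were the 8 members, Lyz1 beside Lyz2, the called genes with the largest change of each marker list (at most 3 in each direction) and the 3 genes most correlated with each member. The members and lists were chosen with earlier results of these data known. A gene named around the members without a call was chosen after its values were seen. Alternatives were DESeq2 1.42.0, edgeR's exact test, other scalings and filters, the replicate number as a block and leaving out each library. The fit was tested on simulated data. Where pools or labels do not separate animals, p-values measure the spread between libraries only.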

Additional observations from a re-analysis of the deposited data

Results flagged for a closer look

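Of 40 sets of 4 to 10 libraries of 1 member in 1 group, 3 had 1 library far from the others by Dixon's test, which chance gives in about 1 of 20 sets. All were in spinal cord. Adgre1 read 4.8 CPM in 22 °C replicate 2, the lowest of its group. In 10 °C replicate 4, Cd68 was lowest at 2.24 CPM, against 5.58 to 6.34 CPM in the others, and Trem2 was highest at 15.5 CPM, against 9.85 to 10.6 CPM.

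In 2 members every cold library moved one way in one tissue and the opposite way in another. Itgax was higher in spleen (0.18 on the log2 scale) and lower in pgVAT (−0.93), and Cd163 was higher in hypothalamus (0.23) and lower in ingSAT (−0.65). The groups of 15.7% of all genes did not overlap in spleen, 11.8% in pgVAT, 11.9% in hypothalamus and 32.8% in ingSAT. None of these values was called by edgeR's quasi-likelihood test, Cd163 in ingSAT was called by the exact test and DESeq2, and the difference between the tissues was not tested.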

How the results depend on the processing

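Over the 3 fat depots at 10 °C, 0 member calls became 4 at the study's limits, 4 in DESeq2, 2 in the exact test and 1 with scaling by library size alone, all in ingSAT, and 0 to 3 when 1 library was left out. Over the other tissues at 10 °C, 5 calls became 6 in DESeq2, 4 with scaling by library size (all in bone marrow) and 1 at the study's limits, and ran from 3 to 6 when 1 library was left out, with 6 without the third cold quadriceps library. At 34 °C, 3 calls became 5 at the study's limits, 6 in DESeq2, 6 with scaling by library size, 2 with RLE scaling and 2 with edgeR's own filter on low counts, and ran from 0 (without iBAT 34 °C replicate 2) to 3. Between depots at 22 °C, 17 calls ran from 11 to 20 when 1 library was left out and from 14 to 20 under other settings. The depot by temperature tests gave 0 calls under every setting run. With the replicate number as a block, the calls were 0 in fat at 10 °C, 2 in the other tissues (Cd163 and Lyz2 in bone marrow), 15 between depots and 0 by temperature. Same-numbered libraries did not deviate together (11 of 30 pairs had a correlation over 0.1, from −0.69 to 0.48, and 9 libraries correlated best with their own number). The planned split of the quadriceps controls was replaced, after seeing the data, by one on the column names. At 10 °C, Mrc1 was 0.63 against the 3 controls headed QM, the prefix of the cold libraries (edgeR, adjusted p = 0.47). Against the 3 headed QC it was 0.46 (edgeR, adjusted p = 0.58). No member was called at 10 °C or 34 °C against either set. The pgVAT fit with 1 cold library and the levels without brain replicate 2 were also added after seeing the data. No called value changed sign under any setting run, and 18 uncalled values did, apart from 133 when 1 library was left out. By library size alone the uncalled signs of Cd68, Mrc1 and Csf1r in pgVAT and of Adgre1, Cd163 and Lyz2 in iBAT at 10 °C turned. The cause of these differences between settings was not tested. With 3 libraries a group and under 20 reads of Trem2 in several of them, small differences of that gene were not detectable at this depth.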
